A study of Bos taurus with 57 samples.

Results

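The anterior pituitary is the endocrine lobe at the base of the brain that secretes growth hormone, prolactin, the gonadotropins LH and FSH, TSH and ACTH. Its output answers to feeding, through hypothalamic releasing hormones and through metabolic signals in the blood, and in the young animal its hormone-producing cell populations are still growing. Here the response of the whole lobe to early-life feeding was described across genes, in the 19 of 57 RNA sequencing libraries whose tissue label is anterior pituitary. Of these, 9 were from Holstein Friesian bull calves on a high plane of nutrition and 10 from calves on a low plane. The labels give overall growth rates of 1.08 and 0.5 kg per day, while the series design text gives 1.2 kg per day for the high plane. All calves were slaughtered at 126 days of age. No treatment other than the plane of nutrition is given. Each library is labelled with its own number (A57, A11 and so on). The labels do not state which calf or which sequencing run a library belongs to. Per the study's methods each calf gave a library of each tissue, so the pituitary libraries come from different calves. The p-values measure the spread between these libraries. The study blocked its calves by farm, sire, age and weight, but the labels do not give the blocks and they entered no model.

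With no account taken of other differences between libraries, most of the genes called were lower on the low plane. With 19 libraries and diet alone in the model, 81 of 14411 genes tested were differentially expressed (0.562%), of which 71 were decreased on the low plane (0.493%) and 10 increased (0.0694%). A differentially expressed gene (DEG) is one with a false discovery rate (FDR) below 0.05 in edgeR's quasi-likelihood test. The decreased genes fell by a median of 1.69 on the log2 scale, or 3.23-fold, and the increased genes rose by a median of 0.76, or 1.70-fold. Of the 71 decreased DEG, 22 fell by more than 2 on the log2 scale, 22 by 1.5 to 2, 21 by 1 to 1.5 and 6 by less than 1. Of the 10 increased DEG, 1 rose by more than 2, 1 by 1 to 1.5 and 8 by less than 1. All fold changes are low over high plane. RNA was taken from the whole lobe, so fewer cells of a type and less RNA per cell cannot be told apart.

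The deposited tables list 24616 Ensembl gene identifiers without names, and none could be paired with a symbol. The genes therefore could not be grouped by function, the tissue could not be checked by hormone genes, and DEG are described by size, direction, abundance and behaviour across libraries. The study's table for this tissue lists its genes by symbol. Among them are the proliferation genes MKI67, TOP2A and CDK1, all lower on the low plane in that table. The hypoxia-inducible factor gene HIF3A is listed as higher. Which identifier stands for which symbol was not determined, and no name was assigned from the size of a change. Of the identifiers, 3879 had no read in any pituitary library and 6326 had reads but fell below edgeR's default filter. The 14411 genes kept held 99.9% of all reads. By correlation of expression over 13467 genes, all 19 libraries were closest to the other pituitary libraries among the 3 tissues sequenced. The correlation was much lower in 5 of them, which are described below. Their median correlation with the other pituitary libraries was 0.668 (A57) to 0.754 (A10), against 0.966 to 0.977 in the other 14. Most of the other pituitary libraries are among the 14, so these medians compare each library largely with the 14. Taken only with libraries of its own set, the median was 0.966 to 0.978 in the 5 and 0.971 to 0.979 in the 14.

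A strong axis between libraries crossed both diets and has to be stated before the genes. In multidimensional scaling by log2 fold change over the 500 genes that differ most in each pair, the first dimension held 76.2% of the variation and the second 3.27%. A set of 5 libraries, namely A57, A51 and A18 of the high plane and A10 and A47 of the low plane, lay between 3.47 and 4.68 on the first dimension. The other 14 lay between -1.81 and -1.07, and no library fell in between. The set of 5 was defined from the data on that dimension and is no group of the study. The 5 libraries had total counts of 6895844 to 16504523 reads and the 14 had 10494695 to 27426173, with 15513 to 17332 and 16903 to 18076 genes detected. The part of depth in the axis was not tested, and the labels name no sequencing batch.

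**Figure D1:**
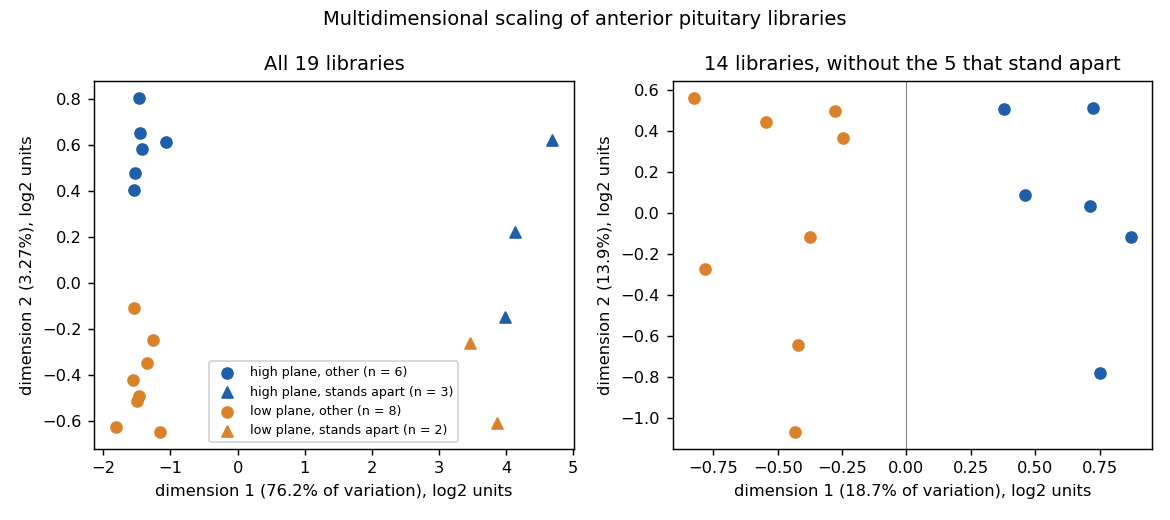
Multidimensional scaling of the anterior pituitary libraries by log2 fold change, each point 1 library, in log2 units. In all 19 libraries (left) the 5 triangles lie apart from the 14 circles on dimension 1 while the diets order on dimension 2, and in the 14 libraries scaled alone (right) the diets lie on either side of 0 on dimension 1.

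The axis was far larger than the effect of diet in most genes. Between the 5 libraries and the 14, with the diets weighted equally, mean log2 CPM (reads on a gene scaled to the size of the library) was more than 1 lower in the 5 for 5047 genes and more than 1 higher for 2268 (15.7%). It was more than 3 lower for 1999 genes (13.9%) and more than 5 lower for 396 (2.75%), whereas 1 gene was more than 3 higher. The distribution was thus one-sided, with a long tail of genes low in the 5 libraries and a compact set that was higher. Genes more than 1 lower took 3.17% to 8.30% of reads in the 5 libraries and 28.5% to 38.9% in the 14. Genes more than 1 higher took 24.2% to 30.2% in the 5 and 10.2% to 14.5% in the 14. The abundant genes were touched as well. The second most-read gene of the tissue took 0.348% to 1.46% of reads in the 5 libraries and 7.28% to 16.2% in the 14, without overlap, while the shares of the most-read gene overlapped, at 3.14% to 26.4% and 8.98% to 25.9%.

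**Figure D2:**
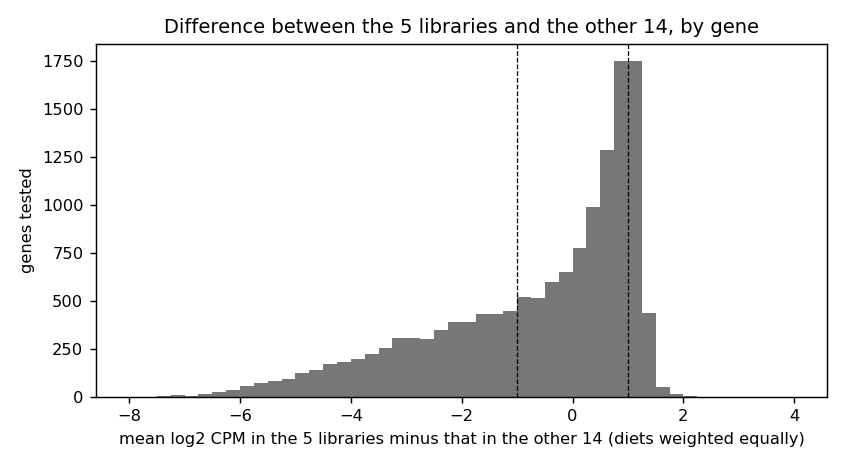
Histogram over the 14411 genes tested of the difference in mean log2 CPM between the 5 libraries that stand apart and the other 14, with the diets weighted equally. The dashed lines mark -1 and 1, beyond which lie 5047 genes on the lower side and 2268 on the higher side.

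Genes picked without the pituitary followed the same axis. For a library score, 200 genes were taken from the arcuate nucleus and testes libraries alone, by their slope on the first dimension there, and their mean log2 CPM was computed in each pituitary library. In the pituitary, all 200 were more than 1 lower in the 5 libraries, with a median difference of -5.73 on the log2 scale. These genes took 0.0065% to 0.014% of reads in the 5 libraries and 0.499% to 0.916% in the 14. No difference in score was detected between the diets, with 2.39 ± 2.94 on the high plane (SD, n = 9) and 3.27 ± 2.33 on the low plane (SD, n = 10; two-sided exact permutation test, p = 0.356). Nor was one detected in position on the first dimension (exact permutation p = 0.328).

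The 2 distances offered by edgeR gave different pictures of diet. By the biological coefficient of variation (BCV) distance, which was chosen as the main one, no difference between the diets was detected on either dimension (exact permutation p = 0.315 and 0.290, both 0.548 adjusted). By log2 fold change distance, the diets differed on the second dimension. There the high plane libraries averaged 0.473 ± 0.285 (SD, n = 9) and the low plane libraries -0.425 ± 0.183 (SD, n = 10; exact permutation p = 2.17e-05, adjusted over 12 tests 0.00026). The high plane ran from -0.146 to 0.807 and the low plane from -0.646 to -0.105. The diets overlapped there by 1 library on each side, A51 of the high plane, which is among the 5, and A27 of the low plane. When the 14 libraries were scaled alone by log2 fold change, diet was the first dimension, with 18.7% of the variation. The high plane averaged 0.650 ± 0.189 (SD, n = 6) and the low plane -0.488 ± 0.216 (SD, n = 8; exact permutation p = 0.000333, the smallest that 3003 arrangements allow, adjusted 0.002). The 2 ranges, 0.379 to 0.871 and -0.824 to -0.248, did not overlap. No difference in total count was detected between the diets in these 14 libraries (exact permutation p = 0.986) or in the 19 (p = 0.366).

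Many more genes were called when the axis was in the model. With the library score as a covariate 1298 genes were DEG (9.01%), 716 increased (4.97%) and 582 decreased (4.04%). With the set a library belongs to (5 or 14) as a covariate, an analysis added after the data were seen, 1158 genes were DEG (8.04%), 621 increased (4.31%) and 537 decreased (3.73%). Of these 1158, 1128 were also among the 1298. All 81 DEG of the model without a covariate were DEG in both. The 81 had a median absolute log2 fold change of 1.60 and the 1158 of 0.43, and increases made up 12.3% of the first and 53.6% of the second. The common BCV was 0.533 without a covariate, 0.184 with the score and 0.191 with the set. The median standard error of the log2 fold change over all genes went from 0.260 to 0.107 and 0.112. The 81 fold changes themselves moved by a median of 0.089 and by 0.32 at most when the set was added.

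The added DEG were mostly small changes. With the set as covariate, 430 of the 621 increased genes rose by less than 0.5 on the log2 scale, 158 by 0.5 to 1 and 33 by more than 1. Of the 537 decreased genes, 253 fell by less than 0.5, 155 by 0.5 to 1 and 129 by more than 1. The median changes were 1.31-fold up and 1.45-fold down. Large changes were still mostly decreases, at 129 of the 162 DEG that changed more than 2-fold. Among the 13253 genes not called in this model, 94.1% had a 95% confidence interval wholly within a log2 change of 1 in either direction, and 70.2% within 0.5. In the model without a covariate these shares were 66.0% and 20.3% of 14330 genes, and for the other 34.05% changes above 2-fold were left undecided as well.

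Genes that differed most along the axis gave the fewest DEG without the covariate. Of the 1999 genes more than 3 lower in the 5 libraries, none was a DEG by edgeR without the covariate and 104 (5.20%) were DEG with the set in the model, 68 of them increased. Their median standard error was 0.667 without and 0.144 with it. Of the 3018 genes within 0.5 of equal level, 31 (1.03%) were DEG without and 292 (9.68%) with it, at median standard errors of 0.136 and 0.103. Genes that were 0.5 to 1 higher in the 5 libraries gave 35 DEG without the covariate (1.15%) and 313 with it (10.3%), of which 114 were increased. Those more than 1 higher gave 10 (0.441%) and 134 (5.91%), of which 52 were increased. The 81 DEG were thus drawn largely from genes that the axis hardly touched or that were mildly higher in the 5 libraries.

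The response was then read in the 2 sets of libraries separately, which share no library. In the 14 libraries (6 high and 8 low plane) 833 of 14563 genes were DEG (5.72%), 404 increased (2.77%) and 429 decreased (2.95%). In the 5 libraries (3 high and 2 low plane) edgeR called 0 of 13507 genes at FDR below 0.05, with 1107 at an unadjusted p below 0.05 and a smallest FDR of 0.0705. Of the 833, 780 could be tested in the 5 libraries, and 636 of them (81.5%) had the same sign there, beside 61.2% of all 13148 genes tested in both sets. At an unadjusted p below 0.05 in the 5 libraries, 207 of the 780 had the same sign and 2 the opposite one. Over all 13148 genes these counts were 937 and 144.

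The large decreases had similar medians in both sets. These counts cover only DEG of the 14 libraries that could be tested in the 5. Of the 103 such DEG that fell by more than 1 in the 14, 96 (93.2%) were also lower on the low plane in the 5. Their medians were -1.51 and -1.61. Of the 20 such DEG that rose by more than 1, 16 were higher in the 5, with medians of 1.21 and 0.65. Over all increased DEG of the 14 libraries, 332 of 390 (85.1%) kept the sign, with medians of 0.39 and 0.31. Over all decreased DEG 304 of 390 (77.9%) did, with medians of -0.61 and -0.42. A test of whether the diet effect differed between the 2 sets called 2 of 14411 genes (0.0139%), one at -0.08 in the 14 and 1.81 in the 5, the other at -0.92 and 1.72. At an unadjusted p below 0.05 it gave 1687 of the 14411 genes (11.7%), 96 of the 1158 DEG found with the set in the model (8.29%) and 1 of the 81 (1.23%, none called by edgeR). The 81 and the 1158 were called over both sets together, which favours genes with like effects in both. Their counts are therefore no evidence that the sets agree.

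**Figure D3:**
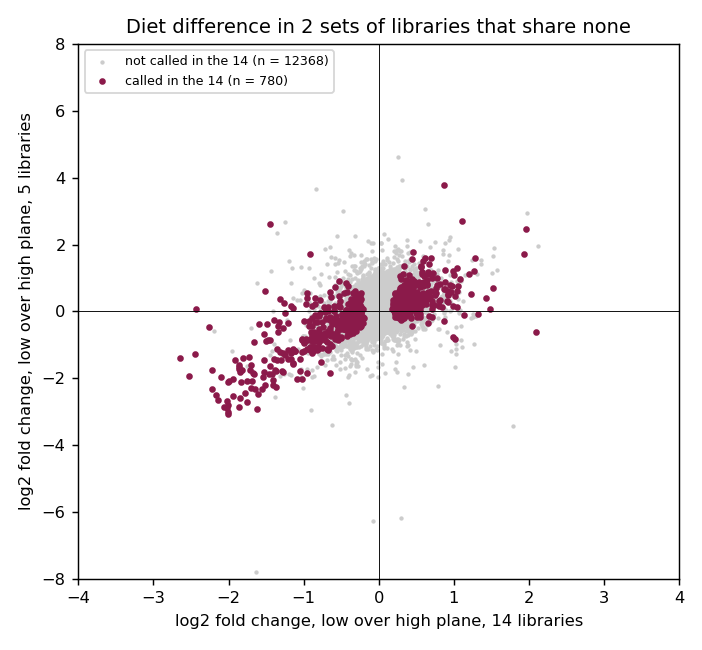
Log2 fold change, low over high plane, in the 14 libraries (horizontal) and in the 5 libraries that stand apart (vertical), each point 1 of 13148 genes tested in both. Of the 780 genes called in the 14 (dark points), 636 lie in the lower left or upper right quadrant, with the large decreases at the lower left.

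The direction of the DEG varied with abundance. Classes were set by mean CPM over all 19 libraries, which is not corrected for gene length. Without a covariate, 54 of the 81 DEG had a mean of 1 to 10 CPM, 52 of them decreased, and made up 1.31% of the 4117 genes in that class. Another 20 had 10 to 100 CPM (0.242% of 8252), 6 had under 1 (1.10% of 544) and 1 had over 100 (0.0668% of 1498). The decreased DEG had a median of 3.15 CPM and a range of 0.71 to 87.3, the increased a median of 26.9 and a range of 0.684 to 231, and all genes tested a median of 20.4.

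With the set as covariate, decreases led among scarce transcripts and increases among abundant ones. Without a covariate, 14 DEG of 10 to 100 CPM were decreased and 6 increased, and the 1 DEG over 100 CPM was increased. Of all genes over 100 CPM, 45.1% had a positive fold change in that model. From 1 to 10 CPM, 224 genes were decreased and 99 increased. From 10 to 100 CPM, 267 were decreased and 376 increased. Over 100 CPM, 27 were decreased and 137 increased, so that 83.5% of the DEG rose, beside 61.3% of all 1498 genes of that class with a positive fold change. The same order was seen in the 14 libraries alone, where 19 genes over 100 CPM were decreased and 109 increased, and 181 genes of 1 to 10 CPM were decreased and 58 increased. It was also seen with the scaling of DESeq2 in edgeR (28 decreased and 124 increased over 100 CPM) and with library totals in place of TMM factors (5 and 88). With library totals the positive share of all genes over 100 CPM was 73.2%. Changes called in the abundant class were small, with a median size of 0.31 on the log2 scale against 0.81 from 1 to 10 CPM. The median standard error over all genes of the class was 0.076 and 0.184 in the same order. Smaller changes could thus be called among abundant genes, and these medians do not compare the sizes of change between the classes.

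No diet difference was called in the 2 most-read genes. The first took 19.98% ± 5.50 of reads on the high plane (SD, n = 9) and 15.2% ± 6.52 on the low plane (SD, n = 10), a log2 fold change of -0.40 with a standard error of 0.32 that was not called with the set in the model (edgeR FDR 0.482). The second most-read gene took 7.14% ± 5.24 and 10.1% ± 4.998 (SD), and its log2 fold change of 0.46 with a standard error of 0.18 was not called either (edgeR FDR 0.111). Without the 5 libraries that fold change was 0.24. Among the 100 most-read genes, none was a DEG by edgeR without a covariate, and with the set in the model 11 were increased and 2 decreased. Of these 100, 17 were more than 1 lower and 22 more than 1 higher in the 5 libraries.

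Single genes separated the libraries cleanly in few cases. Of the 14411 genes tested, 29 (0.201%) had no overlap in CPM between the diets over all 19 libraries, 6 higher on the low plane (0.0416%) and 23 lower (0.16%). Of the 81 DEG, 25 did not overlap, 3 increased and 22 decreased. In the 14 libraries 283 genes did not overlap (1.94% of 14563), 126 higher and 157 lower. The last gene within the FDR threshold fell by 1.02 (FDR 0.04995) and the first outside it fell by 1.64 (FDR 0.0501), so size alone did not set the border.

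To show single libraries, 4 identifiers are given, the 2 increased and the 2 decreased genes with the smallest p. ENSBTAG00000018948 had the largest rise of the 10 increased DEG. On the high plane it ran from 5.19 CPM (A51) over a median of 15.4 to 27.5 (A11), and on the low plane from 40.4 (A4) over 67.8 to 85.5 (A10). The diets did not overlap, and the lowest and the highest value of all came from the set of 5. The means were 15.3 ± 7.02 (SD, n = 9) and 65.8 ± 12.997 (SD, n = 10), a log2 fold change of 2.10 with a standard error of 0.25 (edgeR FDR 0.000405). It was 1.95 in the 14 libraries (FDR 0.000585) and 2.48 in the 5 (FDR 0.225).

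ENSBTAG00000043972, also increased, ran from 4.56 CPM (A11) over 6.41 to 9.19 (A39) on the high plane and from 8.01 (A4) over 14.4 to 20.8 (A14) on the low plane. The diets overlapped at their edges, where A39 lay above the lowest low plane libraries. The means were 6.48 ± 1.30 (SD, n = 9) and 14.1 ± 3.83 (SD, n = 10), a log2 difference of 1.12 (SE 0.18, edgeR FDR 0.00377). It was 1.04 in the 14 libraries and 1.29 in the 5.

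ENSBTAG00000009468 was decreased, from 2.90 ± 0.803 CPM (SD, n = 9) to 0.891 ± 0.198 (SD, n = 10). The high plane ran from 1.46 (A11) over 2.85 to 3.78 (A57) and the low plane from 0.582 (A14) over 0.891 to 1.17 (A4), without overlap. These levels rest on 23 to 81 reads per high plane library and 10 to 25 per low plane library. The log2 fold change was -1.70 with a standard error of 0.20 (edgeR FDR 0.000405), -1.67 in the 14 libraries and -1.84 in the 5.

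ENSBTAG00000001938 was decreased from 10.4 ± 1.69 CPM (SD, n = 9) to 3.67 ± 1.16 (SD, n = 10). The high plane ran from 7.93 (A29) over 9.78 to 13.2 (A18) and the low plane from 2.33 (A14) over 3.42 to 6.36 (A27). The diets did not overlap, and A27 was the low plane library nearest to the high plane. The log2 fold change was -1.49 with a standard error of 0.18 (edgeR FDR 0.000405), -1.38 in the 14 libraries and -1.77 in the 5. All 4 genes differed by 0.213 or less on the log2 scale between the 5 libraries and the 14.

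**Figure D4:**
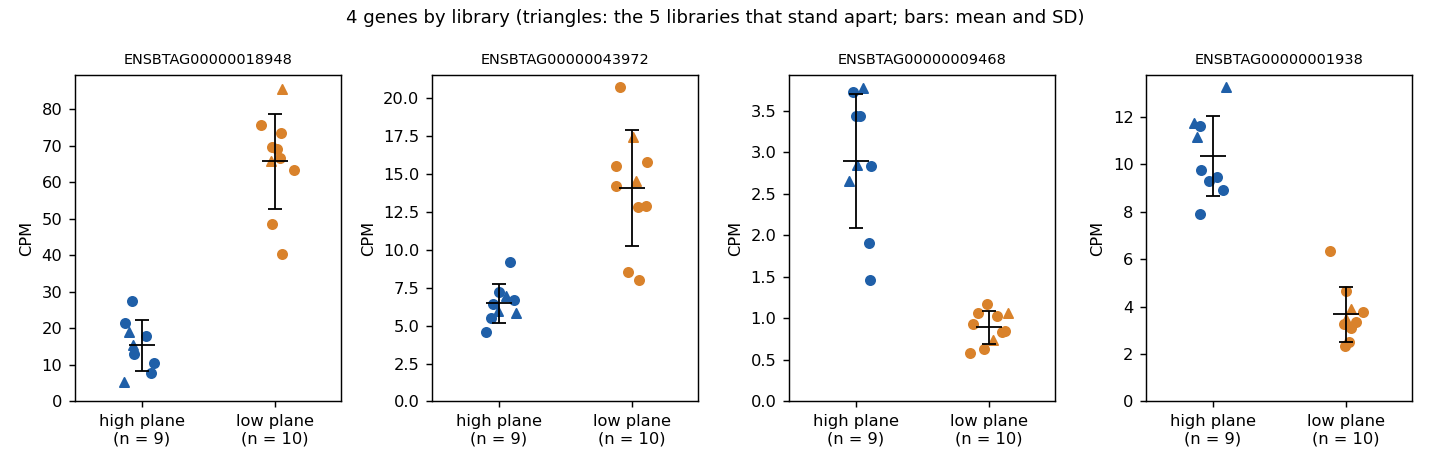
CPM of the 4 genes in each library by diet, with triangles for the 5 libraries that stand apart and bars for the mean and SD (n = 9 high plane, n = 10 low plane). ENSBTAG00000018948, ENSBTAG00000009468 and ENSBTAG00000001938 show no overlap of the diets and ENSBTAG00000043972 a small one.

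The decreased DEG varied together from library to library, with little covariation among the increased DEG. After diet and the set were removed, the median pairwise correlation over the 19 libraries was 0.466 among the 71 decreased genes, -0.027 among the 10 increased genes and 0.021 among all genes tested. Average-linkage clustering of the 71 decreased genes gave 1 block of 49, and none of the other clusters held more than 4 genes. The block was chosen on these libraries after the values were seen and is given without a test. Its median pairwise correlation was 0.685, against 0.168 among the other 22 decreased genes. In the 14 libraries alone the values were 0.747 and 0.20. The block genes had log2 fold changes of -2.50 to -0.80, with a median of -1.79, and mean levels of 0.71 to 27.1 CPM. Of the 49, 47 fell by more than 1.

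Because these genes moved together, their mean gives 1 value per library. Mean log2 CPM of the block was 2.05 (A29) to 3.08 (A18) on the high plane, with a median of 2.49, and 0.012 (A14) to 1.92 (A27) on the low plane, with a median of 0.67. The block was higher in the 5 libraries than in the 14, with a median difference of 0.75 on the log2 scale. Such a difference was not particular to the block. The median was 0.53 for the other 22 decreased genes, and the 75% quantile over all genes tested was 0.81. The 3 highest high plane values were those of the 3 high plane libraries that stand apart (2.70 to 3.08). In the 14 libraries alone the high plane ran from 2.05 to 2.67 (SD 0.236, n = 6) and the low plane from 0.012 to 1.92 (SD 0.614, n = 8, or 0.372 without A27). A27 stood close to the lowest high plane library, whereas its mean over the 10 increased DEG, 4.41, lay within the low plane range of 4.28 to 4.60. The high plane libraries ran from 3.52 to 3.76 for those 10 genes. Mean log2 CPM of the other 22 decreased genes was 2.58 to 3.49 on the high plane and 1.31 to 2.04 on the low plane. A27, at 1.90, lay inside the range of the remaining low plane libraries there, below A10 (2.04) and A47 (1.92), which are among the 5. Among the low plane libraries of the 14 it was the highest for these genes too, with A4 next at 1.80. Counted gene by gene, A27 lay within the range of the other diet for 31 of the 81 DEG, as did A29 of the high plane for 31 and A36 for 29, while A14 did for none. All of these are values of genes chosen for a diet difference, so the separation itself is no finding.

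**Figure D5:**
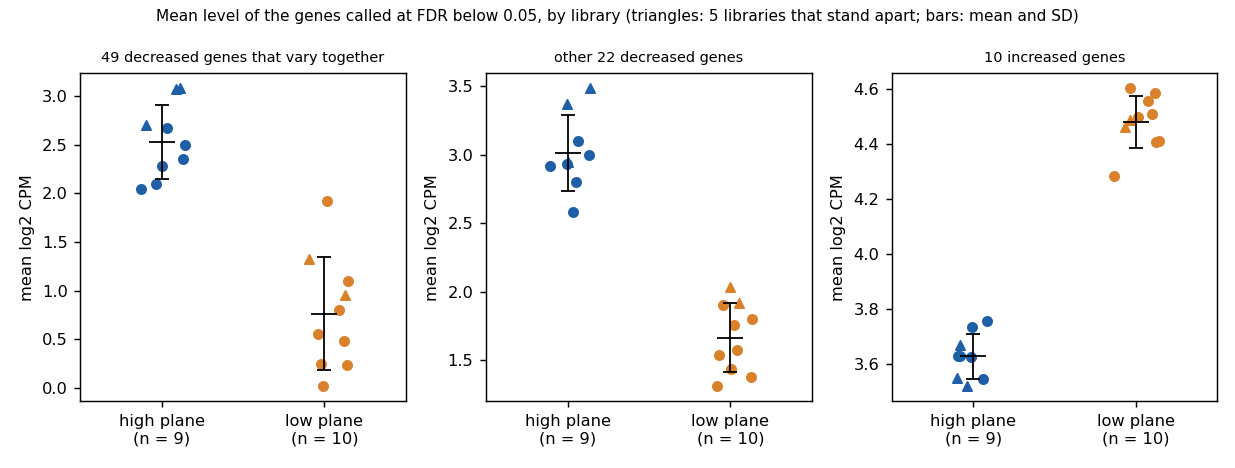
Mean log2 CPM by library of the 49 decreased DEG that vary together, the other 22 decreased DEG and the 10 increased DEG, with triangles for the 5 libraries that stand apart and bars for the mean and SD (n = 9 high plane, n = 10 low plane). In the first panel A27, at 1.92, is the low plane library nearest to the high plane range of 2.05 to 3.08.

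The covariation of the block was also present, at a lower level, in libraries that had no part in choosing it. After diet and the first dimension were removed, the median pairwise correlation of its genes was 0.235 over the 20 arcuate nucleus libraries (40 genes tested) and 0.348 over the 18 testes libraries (49 genes tested), beside 0.012 and 0.013 among all genes of those tissues. The other decreased genes gave 0.049 and 0.0051. These correlations are across genes that share libraries and depth and are given as descriptions. Diet differences of the block in those tissues had medians nearer to 0, and whether they differed from the pituitary was not tested for the block. The block genes were chosen for their fall in the pituitary, so the smaller medians elsewhere are not independent of the choice. In the arcuate nucleus 31 of the 40 block genes were lower on the low plane, with a median of -0.32, beside 50.9% of all genes. None of the 40 was called by edgeR there, nor was any of the 14757 genes tested. At an unadjusted edgeR p below 0.05 there were 14 of the 40 and 1464 of the 14757, a larger share of the block. In the testes 21 of 49 were lower, with a median of 0.042, beside 50.7% of all genes. Of the 49, 7 were DEG in the testes, 6 decreased and 1 increased, beside 1057 of 15310 genes tested there (6.9%).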

How the data were processed

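Total RNA was sequenced as single-end TruSeq mRNA libraries. The authors deposited 1 table of raw read counts per library, as whole numbers per Ensembl gene without normalization. Their processing notes name CASAVA 1.4, STAR, HTSeq and edgeR. The genome build and annotation are not given in the sources used here. The authors left out 1 high plane pituitary library with few reads. Strand use in counting is not given, so overlapping or near-identical genes are uncertain.

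The main test was run with edgeR 4.0.16 in R 4.3.3 (filterByExpr on diet, TMM, glmQLFit and glmQLFTest, Benjamini-Hochberg adjustment over all genes kept, threshold 0.05). CPM used TMM-scaled totals, and log2 CPM a prior count of 2. Alternatives used limma 3.58.1 and DESeq2 1.42.0. The models without a covariate and with the set were run on simulated counts. These held a diet effect but no axis between libraries, so they do not test how the models handle the axis. The model with the score was not simulated. No pair of libraries in a diet agreed within sampling noise (smallest chi-square per degree of freedom 7.13 over 81 pairs). Total counts were 6895844 to 27426173 reads (median 16191735), which leaves genes below 1 CPM with few reads. The library score, lists and members were chosen with earlier results of these data known. The genes named are the 2 increased and 2 decreased identifiers with the smallest p. Since no table pairs identifiers with names, the planned gene lists, cell type markers and promoter motifs were not used.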

Additional observations from a re-analysis of the deposited data

Results flagged for a closer look

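One high plane library lay far from the rest of its diet on the second dimension by BCV distance. A57 was at 0.556 and the nearest high plane library at 0.0253, a gap of 0.826 of the range of the 9 libraries. It is 1 of the 5 libraries that stand apart and the one with the fewest reads, 6895844. Of 22 groups of values searched in this way 1 was found, and chance gives about 1 in 20. The part of depth in this value was not tested.

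For 3 of the 4 named genes the diet effect differed between testes and anterior pituitary in 1 edgeR fit over all 57 libraries. Per the study's methods the tissues were taken from the same calves, but the labels do not tie libraries to calves, so the fit treated the libraries as independent. For ENSBTAG00000018948 the testes minus pituitary difference in log2 fold change was -2.12 (FDR 0.000121), with 43.2 ± 12.3 CPM on the high plane and 42.1 ± 15.6 on the low plane in the testes (SD, n = 10 and 8). For ENSBTAG00000009468 it was 2.27 (FDR 0.0166), with 0.406 ± 0.19 and 0.596 ± 0.259 CPM in the testes (SD). For ENSBTAG00000001938 it was 1.31 (FDR 0.0313), with 17.2 ± 3.19 and 14.7 ± 2.54 CPM (SD). For ENSBTAG00000043972 the difference was not called (-0.28, FDR 0.574). Against the arcuate nucleus none of the 4 differences was called by edgeR (FDR 0.0548 to 0.108), with unadjusted p-values of 0.000143 to 0.000932. The genes were chosen for their change in the pituitary, so these differences are not independent of the choice.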

How the results depend on the processing

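The count of DEG depended on how the axis between libraries was treated. Beside 81 without a covariate, it was 1298 with the library score, 1158 with the set of libraries, 833 without the 5 libraries (all 80 of the 81 that were tested there remained) and 0 by edgeR in the 5 alone, where 1107 genes had an unadjusted p below 0.05. It was 139 by edgeR's exact test (19 increased, 120 decreased), 258 by DESeq2 (78 and 180), 1092 by limma voom with quality weights (519 and 573) and 50 with library totals in place of TMM factors (4 and 46). Leaving out 1 library gave 48 to 88, and 48 without A52, 49 without A35 and 53 without A14. With the score, library totals gave 660 (417 and 243), and leaving out 1 library gave 861 to 1433, the lowest without A23. Between the diets, the second dimension differed by log2 fold change distance (-0.898) and not by BCV distance. The first dimension did not pass the test by either distance, and did (-1.14) when the log2 fold change distance was used and the 5 libraries were also left out. Genes without overlap numbered 283 without the 5 libraries. The causes were not tested.

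The 4 named genes kept their direction under every alternative in which they were tested. They were below the threshold there except in the 5 libraries alone, where all 4 missed it (edgeR FDR 0.14 to 0.392). ENSBTAG00000009468 was not tested under the filter of CPM above 1 in every library, so it had 30 alternatives and the others 31. The libraries, defined after the data were seen, leave 3 against 2 in the set of 5, so an absence of DEG there says little. No paired analysis was possible because the libraries carry no shared replicate numbers and are not tied to calves.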
